A study of Mus musculus with 8 samples.

Results

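The genes described here are 58 neighbours on mouse chromosome 2, placed between Dnajc10 and Sord, whose transcripts were measured by RNA sequencing of mouse embryonic stem cells. They are 58 of the 57010 genes in the deposited table and 58 of the 17976 genes that passed a filter on low counts, so that none was lost to the filter. They were chosen by their HSVTK to Control ratio: transcripts of that stretch had been seen to stand near 0.667 of the Control level in HSVTK cells, both with ganciclovir and without it. Their HSVTK to Control ratios are therefore given as a description, without a test. The rule of choice did not use their response to the drug within each cell group, which was tested. The list was made with earlier results of these data known, however. The difference between both responses equals the change of that ratio between the treatments, so it draws on values used in the choice. The cells fall into 4 groups of 2 libraries. HSVTK GANC are reporter cells in which the 2C-like state switches on the thymidine kinase of herpes simplex virus, cultured with ganciclovir, a nucleoside analogue that this kinase turns into a toxic product. HSVTK DMSO are the same reporter cells with the solvent alone. Control GANC and Control DMSO are the cells labelled control, given either the drug or the solvent, and the labels do not say what these cells carry. Neither a dose nor a duration is given, nor whether the reporter cells are 1 clone, nor which promoter drives the kinase.

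Autosomal genes are normally present as a pair of copies, and for most of them the amount of transcript follows the number of copies, while some are held near their usual level by feedback on their transcription or on the stability of their RNA. Embryonic stem cells in long culture are known to gain or lose chromosome segments, which shifts the transcripts of many neighbouring genes together. The Dnajc10 to Sord stretch holds genes of unrelated function: subunits of the nuclear pore, proteasome, translation machinery and respiratory chain, proteins of the mitotic spindle, and regulators such as Pax6 and Trp53bp1. DNA copies were not measured in the files used here, so a ratio of transcripts is only that, and a lower level in every cell cannot be told apart from a level lowered further in some of the cells. The labels do not say in what else HSVTK and Control cells differ, so the reporter and the cell line that carries it cannot be told apart.

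Libraries held 29704460 to 34184475 counts assigned to genes, and members had 20 to 51247 counts per library. The labels do not tell whether the libraries of one group are separate cultures, and p-values then describe library-to-library spread only, which may be technical. All 8 listed stem cell markers were detected, with summed levels of 5310 to 5480 CPM (counts scaled to equal library totals of 1000000, with TMM factors) in HSVTK GANC, 6170 to 6280 in HSVTK DMSO, 5270 to 5540 in Control GANC and 4960 to 5040 CPM in Control DMSO. One of them, Tdgf1, stood at 1290 and 1320 CPM in HSVTK DMSO, against 558 to 849 CPM in the other libraries. The summed level of 7 fibroblast markers was 16.1 to 18.3 CPM in HSVTK GANC, 15.8 to 16.8 in HSVTK DMSO, 11.3 to 12.7 in Control GANC and 8.62 to 9.2 CPM in Control DMSO, nearly all of it Thy1, with Dcn, Lum and Postn at or near 0. The 4 markers of the 2C-like state summed to 25.7 to 28.8 CPM in HSVTK GANC, 14.8 to 15.4 in HSVTK DMSO, 11.1 to 13.5 in Control GANC and 12.2 to 13.8 CPM in Control DMSO. They were thus highest in the libraries given the drug that is meant to remove such cells, and every direction given below between drug and solvent in HSVTK cells rests on those labels. Primitive endoderm markers, 6 in all and mostly Lama1, summed to 68.7 to 76.6 CPM in HSVTK GANC, 57.8 to 63.4 in HSVTK DMSO, 41.3 to 46.8 in Control GANC and 39.2 to 40.1 CPM in Control DMSO. The 4 trophectoderm markers, mostly Tfap2c and Krt8 with Cdx2 and Elf5 near 0, summed to 28.3 to 28.6 CPM in HSVTK GANC, 41.4 to 46.2 in HSVTK DMSO, 40.6 to 42.9 in Control GANC and 36.5 to 42 CPM in Control DMSO. The 2 main ones went opposite ways. Tfap2c was lowest in HSVTK GANC, at 18.4 and 18.2 CPM against 33.8 to 38 CPM in the other libraries. Krt8 was highest there, at 9.8 and 9.95 CPM against 2.43 to 8.35 CPM. The part of these differences in the results below was not tested.

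The 58 members together gave 6553 and 6601 CPM in HSVTK GANC, against 9291 and 9117 CPM in Control GANC. Under DMSO they gave 6554 and 6450 CPM in HSVTK cells, against 9828 and 9953 CPM in Control cells. The HSVTK sums therefore lay close to each other with and without the drug, and all 4 lay below all 4 Control sums. Over members, the median ratio of HSVTK to Control was 0.69 under GANC, with quartiles at 0.65 and 0.783, and 0.663 under DMSO, with quartiles at 0.566 and 0.795. Each HSVTK library gave a similar median against the Control mean, 0.687 and 0.688 for the GANC libraries and 0.675 and 0.655 for the DMSO libraries. Taking a ratio as near 0.667 when it was within 0.25 of it on the log2 scale (0.561 to 0.793), 39 members were near it under GANC, 6 lay below and 13 above. Under DMSO 29 were near it, 14 lay below and 15 above. Both HSVTK libraries lay below both Control libraries in 52 members under GANC and in 51 under DMSO, above both in 1 and 4 members, and overlapped with them in 5 and 3. Of all 17976 tested genes, 29.4% had both HSVTK libraries below both Control libraries under GANC and 33.5% under DMSO, and 30.2% and 33.7% had both above. The members' counts follow from how they were chosen. The plot of ratios along the gene order shows the members among their neighbours.

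**Figure D1:**
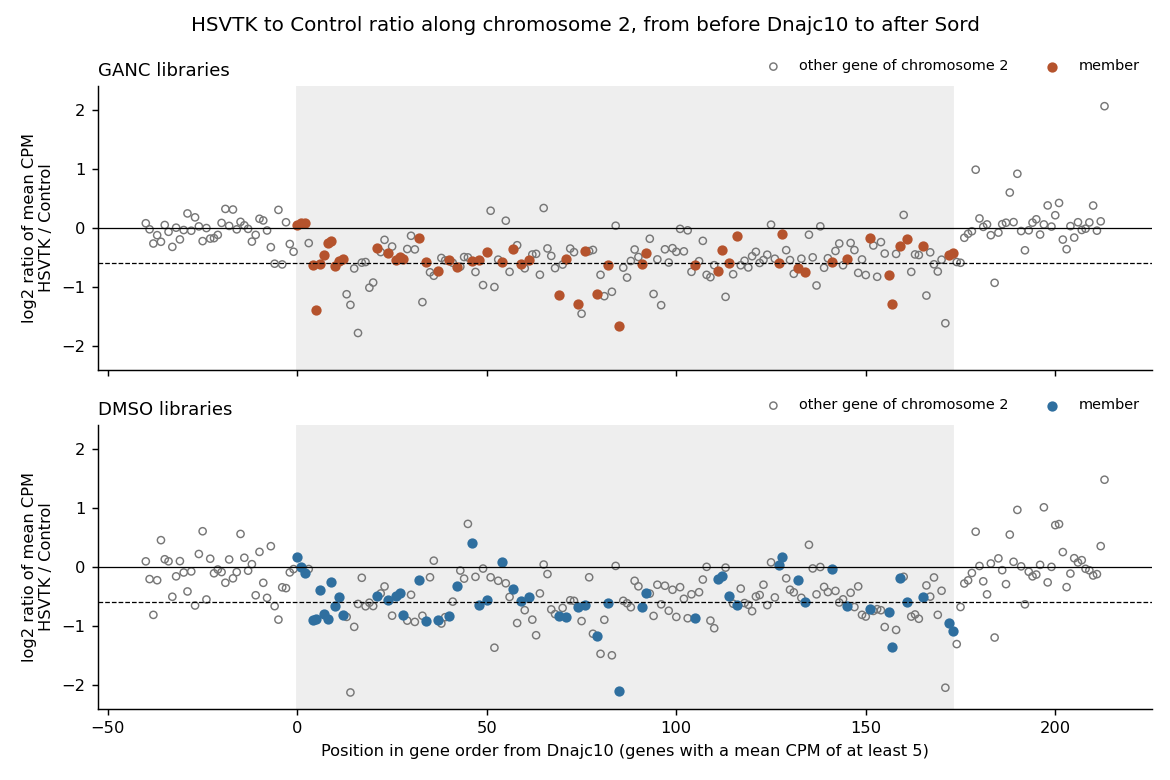
Log2 ratio of mean CPM, HSVTK over Control (vertical axis), for genes of chromosome 2 with a mean CPM of at least 5 in annotation order counted from Dnajc10 (horizontal axis), under GANC (upper panel) and DMSO (lower panel). Filled points are members, open points other genes, the grey field spans Dnajc10 to Sord, the solid line marks equal levels and the dashed line a ratio of 0.667; points inside the field gather at the dashed line from Zc3h15 on, while the first 3 members lie at the solid line and Ano3, with a lower CPM, is not drawn.

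The data went against the label of the stretch at its start. Dnajc10, a co-chaperone that reduces disulfide bonds in the endoplasmic reticulum, stood at 83.3 and 93.8 CPM in HSVTK GANC, against 89.3 and 82.6 CPM in Control GANC, and at 99.4 and 96.7 CPM in HSVTK DMSO, against 84.8 and 88.6 CPM in Control DMSO. Nckap1, a subunit of the WAVE complex that starts actin branching, had ratios of 1.06 under GANC and 0.996 under DMSO. Nup35, a nucleoporin of the inner pore ring, had ratios of 1.06 under GANC and 0.933 under DMSO. These 3 members, first in gene order, were thus near an equal level in both cell groups, with overlapping libraries for Nckap1 under both treatments. Between them and the rest lies Gm4735, no member, with ratios of 0.838 under GANC and 0.978 under DMSO. The next gene in order, Zc3h15, a zinc finger protein that binds the GTPase Drg1, was the first low member at 156 and 158 CPM in HSVTK GANC, against 253 and 230 CPM in Control GANC, and at 151 and 150 CPM in HSVTK DMSO, against 281 and 278 CPM in Control DMSO. Its HSVTK libraries lay far below its Control libraries, with ratios of 0.65 under GANC and 0.538 under DMSO. Before Dnajc10, 2 genes among the nearest 8 with a mean CPM of at least 5 were also near 0.667 under both treatments, Plekha3 (0.658 under GANC and 0.632 under DMSO) and Sestd1 (0.653 and 0.789). Without the first 3 members, the median ratio of the other 55 was 0.689 under GANC and 0.657 under DMSO.

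At the other end Sord (ENSMUSG00000027227), sorbitol dehydrogenase of the polyol pathway, had ratios of 0.745 under GANC and 0.473 under DMSO. The low ratios ran on past it to Shf (0.671 under GANC and 0.405 under DMSO) and Bloc1s6 (0.665 and 0.626), before Myef2 (0.892 and 0.825) and Dut (0.935 and 0.856). Genes of the stretch that are no members, 162 with a mean CPM of at least 1, had a median ratio of 0.703 under GANC and 0.675 under DMSO, close to the members' own. Near 0.667 lay 55.6% of them under GANC and 40.7% under DMSO, against 12.9% and 14.4% of all 13463 genes at that level. The 40 genes before Dnajc10 had medians of 1.01 under GANC and 0.943 under DMSO, and the 40 genes after Sord 1.02 and 0.956. Over the remaining 841 genes of chromosome 2 the medians were 1.0 and 0.984. The medians of the members were thus close to those of the other genes between them.

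**Figure D2:**
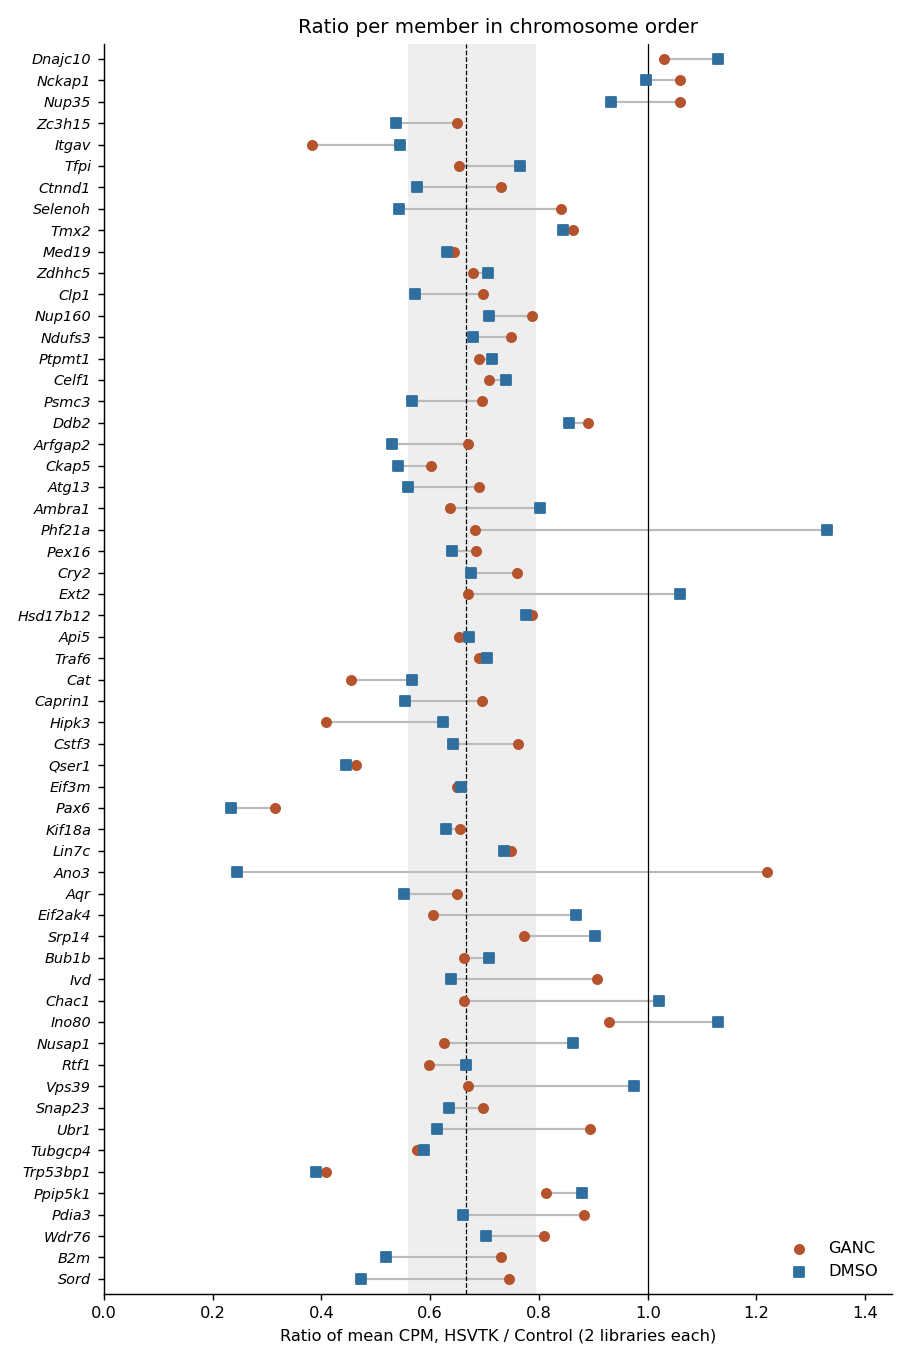
Ratio of mean CPM, HSVTK over Control (horizontal axis, 2 libraries in each group), of each member in gene order from top to bottom, under GANC (circles) and DMSO (squares). The grey field spans 0.561 to 0.793 around 0.667 (dashed), and the solid line marks equal levels; the widest gaps between circle and square belong to Ano3, Phf21a and Ext2.

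Medians were alike under both treatments, single ratios less so. Of the 58 members 23 were near 0.667 under both treatments, 4 were below the range under both and 7 above it under both. Across members the ratio under GANC and the ratio under DMSO, which share no library, had a Spearman correlation of 0.324 and a Pearson correlation on the log2 scale of 0.381, given as a description over 58 genes of the same libraries. The mean ratio of a member had a Spearman correlation of -0.169 with gene length and of 0.0713 with the FPKM in Control cells. Members spanned 0.284 to 269 FPKM (counts scaled by library total and gene length) in their mean over the libraries, with a median of 17.4. Selenoh (ENSMUSG00000076437), a nuclear selenoprotein of redox defence, was the highest per length.

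By the geometric mean of the ratios under both treatments, the lowest members were Pax6, Trp53bp1, Qser1 and Itgav. Under a single treatment the order differed. Ano3, at 0.245 under DMSO, was below all of these but Pax6, and under GANC Hipk3 and Cat were below Qser1. Pax6 (ENSMUSG00000027168), the transcription factor of eye and neural development, stood at 8.5 and 6.58 CPM in HSVTK GANC, against 22.8 and 24.9 CPM in Control GANC, and at 9.66 and 8.94 CPM in HSVTK DMSO, against 40 and 39.6 CPM in Control DMSO. No HSVTK library came near a Control library, and the ratios were 0.315 under GANC and 0.234 under DMSO. Pax6 is itself on the list of neural markers, of which the other 4 summed to 150 and 141 CPM in HSVTK GANC, 122 and 113 in HSVTK DMSO, 117 and 130 in Control GANC and 142 and 129 CPM in Control DMSO. Most of that sum was Tubb3, at 102 to 137 CPM over the 8 libraries. Neurod1, another of the 4, was low where Pax6 was, at 1.97 and 1.4 CPM in HSVTK GANC, against 4.02 and 2.95 CPM in Control GANC, and at 1.68 and 1.11 CPM in HSVTK DMSO, against 7.14 and 5.33 CPM in Control DMSO, and the part of this in the result for Pax6 was not tested. Trp53bp1 (ENSMUSG00000043909), which binds chromatin at double-strand breaks and favours end joining, stood at 48.2 and 44.4 CPM in HSVTK GANC, against 113 and 115 CPM in Control GANC, and at 51.7 and 48.2 CPM in HSVTK DMSO, against 128 and 128 CPM in Control DMSO. Its ratios of 0.408 under GANC and 0.39 under DMSO were alike, and the groups lay far apart. Trp53bp1 shares exon bases with Tubgcp4 on the opposite strand, a subunit of the gamma-tubulin ring complex with ratios of 0.576 under GANC and 0.589 under DMSO. Qser1 (ENSMUSG00000074994), known from human stem cells to keep DNA methylation off developmental promoters, stood at 88.1 and 83.3 CPM in HSVTK GANC, against 196 and 174 CPM in Control GANC, and at 94.6 and 91.3 CPM in HSVTK DMSO, against 198 and 220 CPM in Control DMSO. The HSVTK libraries were below the Control libraries throughout. Itgav (ENSMUSG00000027087), the alpha V integrin subunit that binds vitronectin and fibronectin, stood at 11 and 11 CPM in HSVTK GANC, against 28.4 and 29 CPM in Control GANC, and at 13.5 and 11.2 CPM in HSVTK DMSO, against 23.5 and 21.8 CPM in Control DMSO. Its ratios were 0.383 under GANC and 0.544 under DMSO, below the range near 0.667 under both treatments.

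The members nearest the median of all 58 were Zdhhc5, Traf6 and Cstf3. Zdhhc5, which attaches palmitate to proteins at the cell surface, stood at 89.1 and 84.4 CPM in HSVTK GANC, against 124 and 131 CPM in Control GANC, and at 84.4 and 83.5 CPM in HSVTK DMSO, against 120 and 117 CPM in Control DMSO. Traf6, a ubiquitin ligase of Toll-like and interleukin receptor signalling, had ratios of 0.69 under GANC and 0.704 under DMSO. Cstf3, a scaffold of the cleavage stimulation factor for polyadenylation, had ratios of 0.761 under GANC and 0.642 under DMSO. In all 3 the HSVTK libraries were below the Control libraries under both treatments. At the edges of the range around 0.667, members are placed by the geometric mean of their ratios under both treatments. Hsd17b12, a reductase of fatty acid elongation, lay just inside at the upper end with a mean ratio of 0.781, and Vps39, a subunit of the HOPS tether of late endosomes, just outside with 0.808. At the lower end Ckap5, which speeds microtubule growth at spindle poles, was just inside with 0.57, and Ano3, of the anoctamin membrane proteins, just outside with 0.546, the mean of far apart ratios of 1.22 under GANC and 0.245 under DMSO.

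Beside the first 3 members, Ino80, the ATPase of the nucleosome remodeller of that name, had the highest mean ratio and stood at 88.6 and 88.3 CPM in HSVTK GANC, against 98 and 92.5 CPM in Control GANC, and at 118 and 106 CPM in HSVTK DMSO, against 95.8 and 103 CPM in Control DMSO. Its HSVTK libraries lay above the Control libraries under DMSO and below them under GANC. Further members above the range under both treatments were Tmx2, a thioredoxin-like membrane protein (0.862 under GANC and 0.844 under DMSO), Ddb2, which finds ultraviolet damage in DNA (0.89 under GANC and 0.856 under DMSO), and Ppip5k1, which makes inositol pyrophosphates (0.813 under GANC and 0.88 under DMSO). Ddb2 had few counts, at 7.32 and 9.86 CPM in HSVTK GANC, against 9.7 and 9.62 CPM in Control GANC, and at 9.56 and 7.86 CPM in HSVTK DMSO, against 9.76 and 10.6 CPM in Control DMSO, and its libraries overlapped under GANC.

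By role, the 5 spindle and cell division genes had the narrowest range of the 6 role groups under GANC, all 5 near 0.667 with a median ratio of 0.626 and a range of 0.576 to 0.662. With 5 genes this was also the smallest group, in which a range tends to be narrow. Bub1b, the checkpoint kinase that holds cells in mitosis until chromosomes attach, stood at 264 and 272 CPM in HSVTK GANC, against 395 and 415 CPM in Control GANC, and at 291 and 293 CPM in HSVTK DMSO, against 407 and 418 CPM in Control DMSO, and Kif18a, the kinesin that aligns chromosomes, had ratios of 0.654 under GANC and 0.629 under DMSO. Under DMSO 3 of the 5 were near 0.667, with Nusap1, which bundles spindle microtubules, at 0.863. Their range under DMSO, 0.54 to 0.863, was wider than the 0.56 to 0.802 of the 7 genes of mitochondria, peroxisomes, autophagy and proteolysis. Of 11 genes of RNA transport, processing and translation, 10 were near 0.667 under GANC (median 0.697) and 5 under DMSO (median 0.657). Caprin1, an RNA-binding protein of stress granules and the member with the most counts, stood at 919 and 941 CPM in HSVTK GANC, against 1380 and 1300 CPM in Control GANC, and at 899 and 870 CPM in HSVTK DMSO, against 1580 and 1620 CPM in Control DMSO. It was low in all 4 HSVTK libraries. Eif3m, of the initiation factor that loads the small ribosomal subunit, had ratios of 0.649 under GANC and 0.657 under DMSO, and the splicing helicase Aqr of 0.65 under GANC and 0.552 under DMSO. Celf1, a regulator of splicing and RNA decay, had 0.709 under GANC and 0.74 under DMSO, and Clp1, an RNA kinase of transfer RNA splicing, had 0.697 under GANC and 0.573 under DMSO. Srp14, of the signal recognition particle, had 0.772 under GANC and 0.903 under DMSO.

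Of 7 genes of mitochondria, peroxisomes, autophagy and proteolysis, 6 were near it under GANC (median 0.69) and 5 under DMSO (median 0.641). The proteasome ATPase Psmc3 had ratios of 0.695 under GANC and 0.567 under DMSO and Ndufs3, of respiratory complex I, of 0.748 under GANC and 0.679 under DMSO. Ptpmt1, a mitochondrial phosphatase of cardiolipin synthesis, had 0.689 under GANC and 0.713 under DMSO, and Pex16, which helps form peroxisome membranes, had 0.685 under GANC and 0.641 under DMSO. Transcription, chromatin and DNA damage genes had the widest range under DMSO, 0.234 to 1.33, with 4 of 11 near 0.667 under GANC and 5 under DMSO. Near it under both were Med19, of the Mediator (0.644 under GANC and 0.631 under DMSO), Rtf1, of the Paf1 elongation complex (0.597 under GANC and 0.666 under DMSO), and Cry2, a repressor of the circadian clock (0.76 under GANC and 0.676 under DMSO). Wdr76, a WD-repeat protein, had 0.81 under GANC and 0.703 under DMSO. Genes of the endoplasmic reticulum, redox and metabolism had 4 of 11 near it under each treatment and the highest medians, 0.813 under GANC and 0.776 under DMSO, and they include Dnajc10. Catalase, from Cat, had 0.455 under GANC and 0.566 under DMSO. The 13 genes of membrane traffic, adhesion and signalling had medians of 0.69 and 0.672, with 10 and 7 near it. The inhibitor of apoptosis Api5 had 0.653 under GANC and 0.672 under DMSO, the polarity scaffold Lin7c 0.748 under GANC and 0.735 under DMSO and Snap23, a SNARE of membrane fusion, 0.698 under GANC and 0.635 under DMSO. Arfgap2, of coatomer vesicles, had 0.669 under GANC and 0.529 under DMSO, and Tfpi, an inhibitor of blood clotting, had 0.653 under GANC and 0.765 under DMSO.

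Ganciclovir was then compared with DMSO within HSVTK cells, the comparison that asks what the drug did in cells with the kinase. Of the 58 members 12 rose (20.7%) and 12 fell (20.7%), against 13.3% of all tested genes called higher and 15.2% called lower (edgeR quasi-likelihood test, Benjamini-Hochberg over all 17976 genes). Of 100 genes outside the stretch whose proteins work in complexes with members, described further below, 19 rose and 10 fell. The tested genes include many with low counts, since 13463 of the 17976 had a mean CPM of at least 1. The part of expression level in these shares was not tested. The median log2 fold change was -0.03 over members and 0.01 over all tested genes, with as many members up as down. When each library was left out in turn, 5 of the 12 higher and 6 of the 12 lower calls were kept throughout. Without HSVTK DMSO replicate 2 fewer members and fewer genes in all were called, and without HSVTK GANC replicate 1 fewer members were higher. With limma on log2(FPKM + 1) 12 members and 2615 genes in all were called, against 24 members and 5119 genes with edgeR. With scaling by library size alone, 15 members were higher and 10 lower.

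Ano3 had the largest rise on the log2 scale and the fewest counts, at 2.25 and 3.29 CPM in HSVTK GANC, against 0.623 and 0.613 CPM in HSVTK DMSO. That is 71 and 110 counts against 20 and 21 counts, and a log2 fold change of 2.16 ± 0.36 (SE, adjusted p = 4.18e-05). Sord stood at 24.3 and 26.2 CPM in HSVTK GANC, against 16.1 and 19.1 CPM in HSVTK DMSO and rose by 0.52 ± 0.10 (SE, adjusted p = 0.000264). Ctnnd1, the p120 catenin that keeps cadherins at the cell surface, stood at 26.7 and 23.9 CPM in HSVTK GANC, against 19.5 and 17.8 CPM in HSVTK DMSO and rose by 0.44 ± 0.10 (SE, adjusted p = 0.000951). In all 3 genes both drug libraries lay above both solvent libraries. Selenoh stood at 283 and 274 CPM in HSVTK GANC, against 208 and 219 CPM in HSVTK DMSO, a rise of 0.38 ± 0.06 (SE, adjusted p = 9.38e-06), and Pdia3, a disulfide isomerase that helps load peptides on class I molecules, rose by 0.28 ± 0.05 (SE, adjusted p = 8.6e-05). These 5 kept their calls with any 1 library left out, but Ano3 was not called with limma on log2(FPKM + 0.1), at 1.39 (adjusted p = 0.0903), or on log2(FPKM + 1), at 0.36 (0.112). Ivd, which breaks down a product of leucine, rose by 0.43 ± 0.10 (SE, adjusted p = 0.00192), but the adjusted p was 0.0679 when HSVTK DMSO replicate 2 was left out and 0.11 when HSVTK GANC replicate 1 was. Ubr1, a ubiquitin ligase of the N-degron pathway, rose by 0.37 ± 0.09 (SE, adjusted p = 0.00204), lost without HSVTK DMSO replicate 2 (0.143). B2m, the light chain of class I molecules, rose by 0.36 ± 0.11 (SE, adjusted p = 0.0174), lost on leaving out either of the HSVTK GANC libraries (0.101 for replicate 1 and 0.057 for replicate 2) or replicate 1 of HSVTK DMSO (0.208). The remaining 4 that rose, Cry2, Atg13, Cstf3 and Psmc3, did so by 0.16 to 0.31. Cry2 and the autophagy starter Atg13 lost the call when HSVTK DMSO replicate 2 was left out (0.157 and 0.135) and when HSVTK GANC replicate 1 was (0.177 and 0.119). Cstf3 lost it on leaving out either of the HSVTK DMSO libraries (0.18 for replicate 1 and 0.0869 for replicate 2) or replicate 2 of HSVTK GANC (0.147), and Psmc3 on leaving out any 1 library other than those of Control GANC (0.0575 to 0.356).

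Among members that fell, Nusap1 stood at 107 and 101 CPM in HSVTK GANC, against 155 and 153 CPM in HSVTK DMSO, a log2 fold change of -0.56 ± 0.07 (SE, adjusted p = 3.94e-07). Its groups lay well apart, though its exons overlap Oip5 on the opposite strand. Phf21a (ENSMUSG00000058318), a reader of unmodified histone tails in a demethylase corepressor complex, stood at 43.4 and 44 CPM in HSVTK GANC, against 67.2 and 61.1 CPM in HSVTK DMSO, a change of -0.55 ± 0.08 (SE, adjusted p = 3.02e-06). Ext2 (ENSMUSG00000027198), which polymerises heparan sulfate chains, stood at 32.8 and 32.6 CPM in HSVTK GANC, against 46.7 and 43 CPM in HSVTK DMSO, a change of -0.46 ± 0.08 (SE, adjusted p = 0.000114). In each of these 3 both drug libraries were below both solvent libraries. Vps39 fell by 0.38 ± 0.09 on the log2 scale (adjusted p = 0.00191), and Ino80 fell by 0.34 ± 0.07 (adjusted p = 0.000434). Chac1 (ENSMUSG00000027313), which degrades glutathione and is induced by amino acid stress, fell by 0.33 ± 0.07 (adjusted p = 0.000331). These 6 calls held whichever library was left out, but with limma on log2(FPKM + 1) those of Vps39 (0.0646) and Ino80 (0.0538) were lost. Hipk3, a kinase of transcription factors, stood at 6.63 and 7.17 CPM in HSVTK GANC, against 10.7 and 9.35 CPM in HSVTK DMSO, a change of -0.54 ± 0.13 (SE, adjusted p = 0.00277) lost without HSVTK DMSO replicate 1 (0.0542). Eif2ak4, the kinase that senses uncharged transfer RNA, changed by -0.30 ± 0.09 (SE, adjusted p = 0.0129), with an adjusted p of 0.108 when HSVTK DMSO replicate 2 was left out and 0.064 when HSVTK GANC replicate 1 was. Ckap5, Cat, Tfpi and Traf6 fell by 0.20 to 0.25. Ckap5 was no longer called on leaving out replicate 1 of HSVTK DMSO (0.105) or replicate 2 of HSVTK GANC (0.0642), and Tfpi when HSVTK DMSO replicate 2 (0.345) or HSVTK GANC replicate 1 (0.227) was left out. Cat lost it on leaving out either of the HSVTK DMSO libraries (0.0836 for replicate 1 and 0.122 for replicate 2) or replicate 1 of HSVTK GANC (0.0945), and Traf6 without any of the DMSO libraries or HSVTK GANC replicate 1 (0.0521 to 0.322). The HSVTK GANC libraries also had the highest mitochondrial share of counts (3.56 and 3.45%, against 2.88 to 3.17% in the other 6), whose part in these calls was not tested.

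Control cells serve as the background for the drug. With ganciclovir 4 of 58 members rose in them (6.9%) and 5 fell (8.62%), against 4.73% and 3.35% of all tested genes. Of the 100 genes of member complexes outside the stretch, 5 rose and 8 fell. The median log2 fold change was -0.06 over members and 0.00 over all tested genes. Without replicate 1 or without replicate 2 of Control DMSO, fewer members and fewer genes in all were called. With limma on log2(FPKM + 1) 0 members and 29 genes in all were called. At an unadjusted p below 0.05 limma gave 17 members, edgeR 18 and DESeq2 18. There is no share over all genes to set beside these counts. DESeq2 called 10 members and 1518 genes in all. Pax6 stood at 22.8 and 24.9 CPM in Control GANC, against 40 and 39.6 CPM in Control DMSO, a change of -0.74 ± 0.11 (SE, adjusted p = 6.53e-05). Phf21a stood at 65.5 and 62.7 CPM in Control GANC, against 46.8 and 49.4 CPM in Control DMSO, a rise of 0.42 ± 0.08 (SE, adjusted p = 0.00116). Ckap5 stood at 184 and 157 CPM in Control GANC, against 216 and 229 CPM in Control DMSO, a change of -0.38 ± 0.07 (SE, adjusted p = 0.000747). These 3, whose groups did not overlap, kept their calls with any 1 library left out. Caprin1 changed by -0.25 ± 0.05 (SE, adjusted p = 0.00165), lost without Control DMSO replicate 2 (0.0741), and Selenoh by -0.25 ± 0.06 (SE, adjusted p = 0.0059), lost without Control DMSO replicate 1 (0.0938) or replicate 2 (0.094). Chac1 rose by 0.29 ± 0.07 (SE, adjusted p = 0.0059), lost without Control DMSO replicate 1 (0.0555), Control DMSO replicate 2 (0.0876) or Control GANC replicate 2 (0.0553). Ambra1, an autophagy regulator, rose by 0.27 ± 0.07 (SE, adjusted p = 0.0206), lost without Control DMSO replicate 1 (0.0728), Control DMSO replicate 2 (0.218) or Control GANC replicate 2 (0.103). Zc3h15 changed by -0.21 ± 0.06 (SE, adjusted p = 0.0237) and lost its call without any 1 of the DMSO libraries or Control GANC replicate 2 (0.0663 to 0.209). Itgav rose by 0.34 ± 0.10 (SE, adjusted p = 0.044) and lost its call without any of the 4 Control libraries (0.0522 to 0.293).

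The drug responses of both cell groups were compared directly by an interaction term. This difference is by construction also the change of the HSVTK to Control ratio between GANC and DMSO. Members were chosen by both of these ratios, so the counts that follow describe values used in the choice and are no independent test. The difference was called higher in 15 members (25.9%) and lower in 12 (20.7%), against 11.6% and 14.0% of all tested genes. Of the 100 genes of member complexes outside the stretch, 25 were higher and 12 lower. The median difference was 0.06 over members and 0.02 over all. In both drug comparisons 4 members were called, Selenoh, Phf21a, Chac1 and Ckap5, and all but Ckap5 moved in opposite directions. The 2 responses had opposite signs in 32 of 58 members and a Spearman correlation of -0.297, a description over genes of comparisons that share no library. Neither value is set beside one over all tested genes, so neither is read as particular to the members. Of the 27 members with a called difference, 12 kept it with any 1 library left out, 6 in each direction. Without replicate 1 of HSVTK DMSO or of Control DMSO fewer members were called. With limma on log2(FPKM + 1) 11 members and 1981 genes in all were called, against 27 members and 4595 genes with edgeR.

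**Figure D3:**
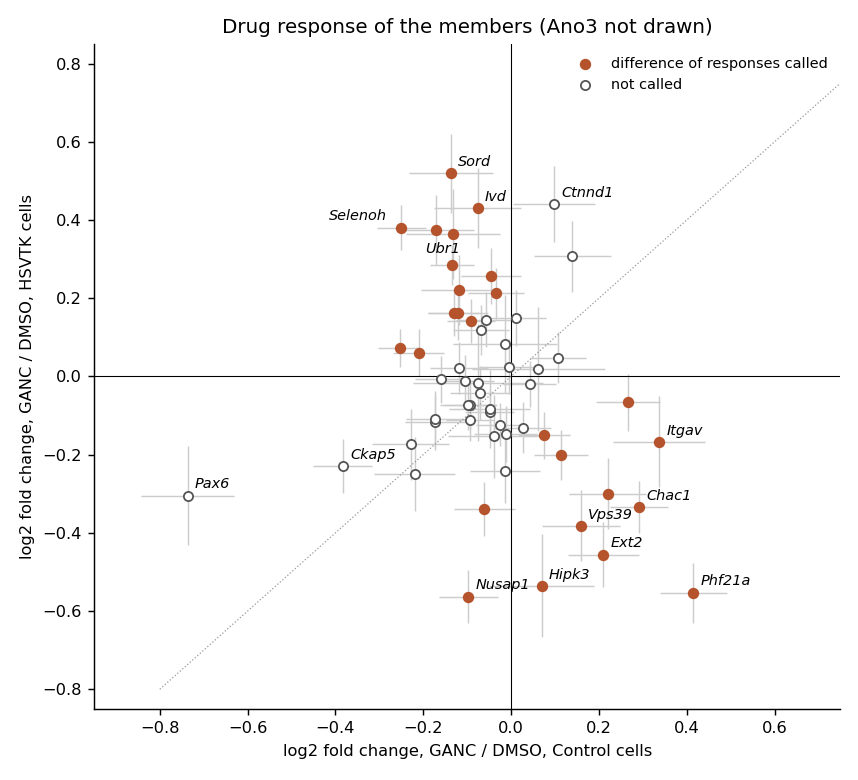
Log2 fold change of GANC over DMSO in HSVTK cells (vertical axis) against that in Control cells (horizontal axis), one point per member with bars of 1 standard error on both axes. Filled points have a called difference of responses and the dotted line marks equal responses; Phf21a, Ext2 and Chac1 lie low at the right, Selenoh and Sord high at the left, and Ano3, at 2.16 and -0.14, is beyond the axis.

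The 3 members with the largest called differences below 0, Phf21a, Ext2 and Chac1, had mean levels in HSVTK cells above the Control mean under DMSO and below it under GANC. Phf21a stood at 43.4 and 44 CPM in HSVTK GANC, against 65.5 and 62.7 CPM in Control GANC, and at 67.2 and 61.1 CPM in HSVTK DMSO, against 46.8 and 49.4 CPM in Control DMSO. HSVTK cells were thus below Control cells with the drug and above them without it, with ratios of 0.682 under GANC and 1.33 under DMSO and a difference of -0.97 ± 0.11 (SE, adjusted p = 1.26e-07). Ext2 stood at 32.8 and 32.6 CPM in HSVTK GANC, against 47.9 and 49.9 CPM in Control GANC, and at 46.7 and 43 CPM in HSVTK DMSO, against 43.7 and 40.8 CPM in Control DMSO, so that the cell groups overlapped under DMSO only, and its difference was -0.67 ± 0.12 (SE, adjusted p = 7.97e-05). Chac1 stood at 75.3 and 74.2 CPM in HSVTK GANC, against 109 and 117 CPM in Control GANC, and at 93.3 and 95.2 CPM in HSVTK DMSO, against 92.9 and 91.4 CPM in Control DMSO, apart under GANC and within 4 CPM under DMSO, with a difference of -0.63 ± 0.09 (SE, adjusted p = 1.09e-05). Vps39 (-0.54 ± 0.13, adjusted p = 0.00199), Eif2ak4 (-0.52 ± 0.13, adjusted p = 0.0027) and Nusap1 (-0.47 ± 0.10, adjusted p = 0.000603) also had a lower ratio under GANC than under DMSO and kept their calls with any 1 library left out. With limma on log2(FPKM + 1) the calls of Vps39 (0.0632) and Nusap1 (0.091) were lost. Hipk3 (-0.61) lost its call without HSVTK DMSO replicate 1 (adjusted p = 0.0713), and Cat (-0.31) without Control DMSO replicate 1 (0.0542). Itgav (-0.51) lost it without Control DMSO replicate 2 (0.0646) or HSVTK DMSO replicate 1 (0.14), and Ambra1 (-0.33) on leaving out replicate 2 of HSVTK GANC (0.0808) or of Control DMSO (0.0781), or replicate 1 of HSVTK DMSO (0.0722). Ino80 (-0.28) lost it without either HSVTK GANC library or replicate 1 of any other group (0.053 to 0.21), and Srp14 (-0.23) without any library but Control GANC replicate 1 (0.0645 to 0.145).

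The opposite order, a ratio lower under DMSO than under GANC, gave the differences above 0. Selenoh stood at 283 and 274 CPM in HSVTK GANC, against 320 and 343 CPM in Control GANC, and at 208 and 219 CPM in HSVTK DMSO, against 396 and 393 CPM in Control DMSO. Its HSVTK libraries were below the Control libraries throughout, with ratios of 0.84 under GANC and 0.543 under DMSO and a difference of 0.63 ± 0.08 (SE, adjusted p = 9.75e-07). Sord stood at 24.3 and 26.2 CPM in HSVTK GANC, against 32.1 and 35.6 CPM in Control GANC, and at 16.1 and 19.1 CPM in HSVTK DMSO, against 37.4 and 37 CPM in Control DMSO, again with no overlap, and its difference was 0.66 ± 0.14 (SE, adjusted p = 0.000765). Ano3 had a difference of 2.30 ± 0.48 (SE, adjusted p = 0.00065), from 107 and 41 counts in the 2 Control GANC libraries and 82 and 74 in Control DMSO, and its cell groups overlapped under GANC. With limma it was not called, at 1.57 on log2(FPKM + 0.1) (adjusted p = 0.175) and 0.40 on log2(FPKM + 1) (0.21). Ubr1 (0.55 ± 0.12, adjusted p = 0.00163), Pdia3 (0.42 ± 0.07, adjusted p = 5.95e-05) and Caprin1 (0.33 ± 0.07, adjusted p = 0.000784) kept their calls with any 1 library left out as well, but with limma on log2(FPKM + 1) that of Ubr1 was lost (0.135). The other 9 members with a difference above 0, B2m, Ivd, Zc3h15, Psmc3, Atg13, Cstf3, Arfgap2, Clp1 and Aqr, had values of 0.23 to 0.51. Ivd lost its call on leaving out replicate 1 of HSVTK GANC (0.114) or of Control GANC (0.0617), or replicate 2 of HSVTK DMSO (0.0841). B2m lost it on leaving out replicate 1 of HSVTK GANC (0.0668), of HSVTK DMSO (0.133) or of Control DMSO (0.0864), or replicate 2 of Control GANC (0.05), and Psmc3 without replicate 1 of any group but HSVTK GANC, or without HSVTK GANC replicate 2 (0.0644 to 0.114). Zc3h15 (0.0564 to 0.101) and Clp1 (0.0944 to 0.206) lost it without any library but Control GANC replicate 1 and HSVTK GANC replicate 1. Atg13 kept it only without replicate 2 of Control GANC or of HSVTK GANC (0.0643 to 0.167 otherwise), Aqr only without a Control GANC library (0.0552 to 0.248), Arfgap2 only without Control GANC replicate 2 (0.0833 to 0.256) and Cstf3 only without Control GANC replicate 1 (0.0539 to 0.233).

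By role, 5 of the 11 RNA and translation genes had a called difference above 0 and 2 below it. The 11 transcription and chromatin genes had 0 above and 3 below. The 11 genes of the endoplasmic reticulum, redox and metabolism had 4 above and 3 below. The 5 spindle genes had 0 above and 1 below, and the 7 organelle and proteolysis genes 3 above and 1 below. The 13 membrane and signalling genes had 3 above and 2 below. Of all tested genes, 11.6% were called above 0 and 14.0% below it. The counts per role are small, the roles were set with earlier results known, and no test was made between roles.

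**Figure D4:**
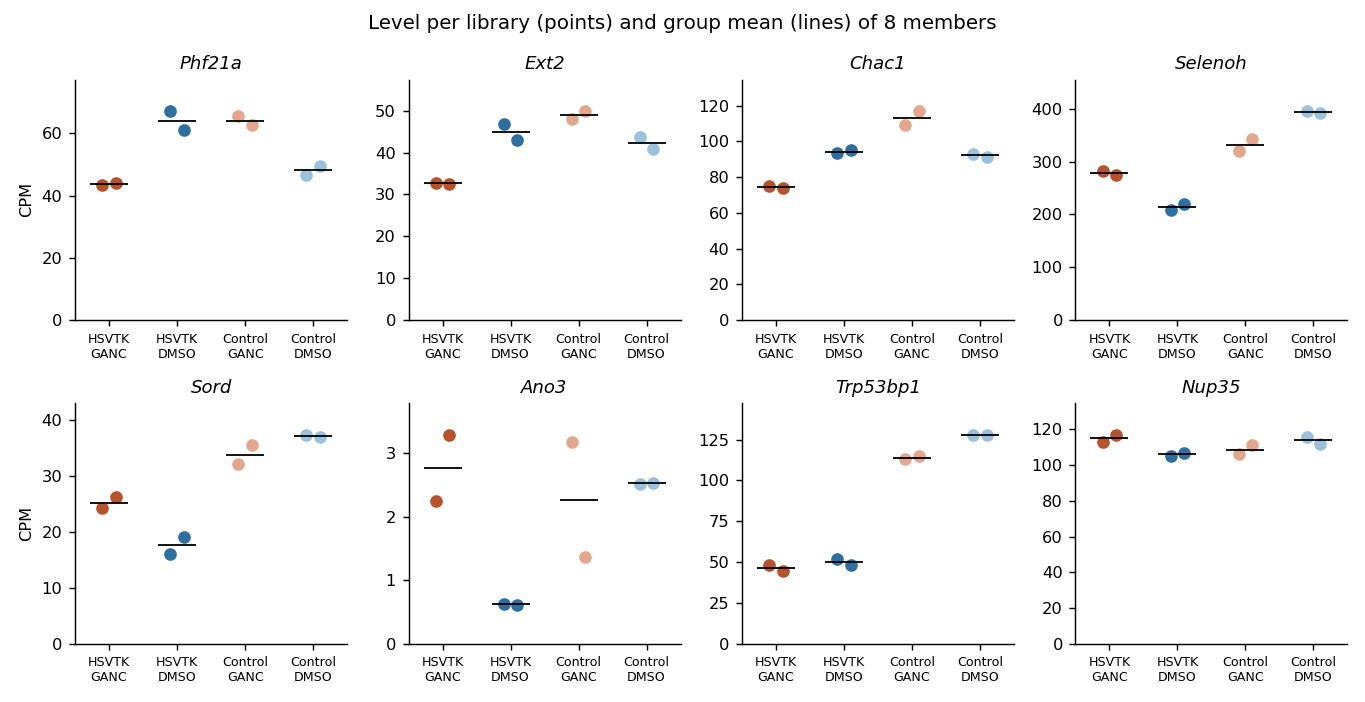
CPM (vertical axis, from 0) of 8 members in each library (points) with the group mean (line), for HSVTK GANC, HSVTK DMSO, Control GANC and Control DMSO from left to right. In Phf21a, Ext2 and Chac1 the drug libraries are low in HSVTK and high in Control cells, in Selenoh and Sord the order is the opposite, Trp53bp1 is low in all 4 HSVTK libraries and Nup35 is level.

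The promoters of the 3 members with the lowest adjusted p for the difference of responses are shown, because their transcripts moved apart most clearly: Selenoh upwards, Phf21a and Chac1 downwards in HSVTK relative to Control cells. The sequences, from 250 bases before to 50 bases after the transcription start, are those of RefSeq on GRCm38.p6, read 5′ to 3′ on the gene's strand, and for Phf21a the first of its entries is given. Capitals mark matches on either strand to CCAAT (the box bound by NF-Y), TATAAA or TGATGNAA (the core of elements bound by ATF4 with C/EBP partners).
Phf21a, chr2:92185233-92185532, plus strand: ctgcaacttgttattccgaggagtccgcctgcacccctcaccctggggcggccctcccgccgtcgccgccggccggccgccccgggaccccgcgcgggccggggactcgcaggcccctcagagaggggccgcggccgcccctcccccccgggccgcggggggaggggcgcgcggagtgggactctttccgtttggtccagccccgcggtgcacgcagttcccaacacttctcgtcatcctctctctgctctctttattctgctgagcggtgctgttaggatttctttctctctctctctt
Selenoh, chr2:84670659-84670958, minus strand: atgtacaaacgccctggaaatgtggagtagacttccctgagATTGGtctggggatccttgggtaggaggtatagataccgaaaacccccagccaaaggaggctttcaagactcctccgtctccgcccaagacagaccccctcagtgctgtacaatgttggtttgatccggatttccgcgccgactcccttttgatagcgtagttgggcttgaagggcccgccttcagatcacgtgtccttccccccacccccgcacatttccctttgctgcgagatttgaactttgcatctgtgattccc
Chac1, chr2:119350992-119351291, plus strand: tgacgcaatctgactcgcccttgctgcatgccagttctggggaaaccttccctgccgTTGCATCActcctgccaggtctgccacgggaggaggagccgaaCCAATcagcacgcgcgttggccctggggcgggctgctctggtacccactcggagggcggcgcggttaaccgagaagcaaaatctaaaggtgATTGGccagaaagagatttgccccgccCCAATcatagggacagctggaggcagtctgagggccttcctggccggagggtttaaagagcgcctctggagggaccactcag
The Chac1 window held the TGATGNAA motif, on the opposite strand, and CCAAT on both strands, the Selenoh window CCAAT on the opposite strand, and the Phf21a window shown none of the 3. Another Phf21a entry, not shown, held TATAAA and had a GC content of 33.3%, against 70.0% in the one shown. RefSeq promoters matched 53 of the 58 members. With 1 entry counted per member, 21 of these 53 held CCAAT (39.6%, against 37.9% of all 27025 promoters). On that count 5 held TATAAA (9.43%, against 14.2%) and 1, that of Chac1, held TGATGNAA (1.89%, against 4.06%). Members with several entries can hold a motif in another one, as Ctnnd1 does for TATAAA. Members' promoters had a median GC content of 60.3%, against 52.7% over all, and a median ratio of observed to expected CpG of 0.817, against 0.389, where the larger set also holds promoters of genes not expressed in these cells. A match is a description of letters in this window only.

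Many members work in fixed complexes with proteins encoded elsewhere, so the partner genes show the HSVTK to Control ratio outside the stretch. There the rule for members did not use it and it could be tested, though partners were listed with earlier results known. Of 101 tested partners of 18 members, 100 lie outside the stretch. Under GANC 9 of the 100 were higher and 14 lower in HSVTK than in Control cells, with a median ratio of 0.992, against 11.1% higher and 14.9% lower among all tested genes. Under DMSO 10 were higher and 27 lower, with a median of 0.947, against 16.4% higher and 17.3% lower among all tested genes. Without HSVTK GANC replicate 2 fewer partners and fewer genes in all were called under GANC. The member's own ratio was below the median of its partners in 16 of 18 complexes under GANC and in 15 of 18 under DMSO, an order that the choice of low members favours. Psmc3, for instance, had 0.695 under GANC and 0.567 under DMSO, against medians of 1.1 and 0.874 for the 5 other proteasome ATPases, and Eif3m had 0.649 under GANC and 0.657 under DMSO, against 0.952 and 0.948 for the 11 other subunits. Ndufs3 had 0.748 under GANC and 0.679 under DMSO, against 1.1 and 0.991 for 9 other subunits of complex I. Nup160, of the outer pore ring, had 0.788 under GANC and 0.709 under DMSO, against 0.985 and 0.999 for its 9 partners.

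**Figure D5:**
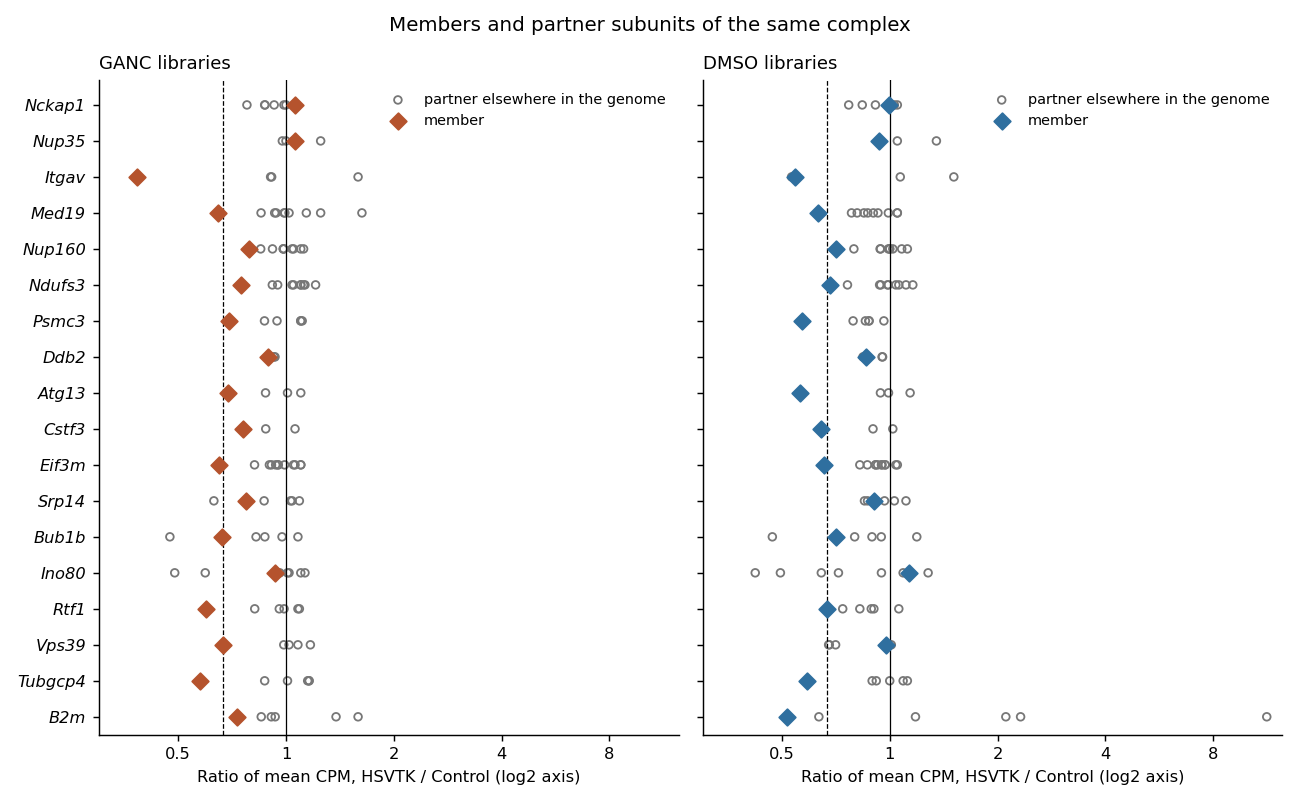
Ratio of mean CPM, HSVTK over Control (horizontal log2 axis), of 18 members (diamonds) and of the partner subunits encoded outside the Dnajc10 to Sord stretch (open circles), under GANC (left) and DMSO (right). The dashed line marks 0.667 and the solid line equal levels; the diamonds lie left of the median of their circles in 16 of 18 complexes under GANC and in 15 of 18 under DMSO.

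Among partners called lower, the largest changes were those of Mad2l1, a checkpoint partner of Bub1b, and Ino80b and Ruvbl1, of the Ino80 remodeller. All 3 lie on chromosome 6 between Scrn1 and Tmf1, with a median ratio of 0.49 under GANC and 0.47 under DMSO. Partners elsewhere on chromosome 6 were Sec13 (1.05 under GANC and 0.999 under DMSO), Nup205 (1.05 and 1.05) and Brk1 (0.987 and 0.912). Mad2l1 stood at 99.1 and 101 CPM in HSVTK GANC, against 216 and 207 CPM in Control GANC, a log2 fold change of -1.08 ± 0.06 (SE, adjusted p = 9.4e-14), and changed by -1.09 under DMSO. Ino80b changed by -1.03 under GANC and -1.25 under DMSO, and Ruvbl1 by -0.75 and -1.01. Without these 3 the medians of the other 97 partners were 1.0 and 0.948. In the HOPS complex the order of Vps39 and the median of its partners differed between the treatments. Under DMSO the 4 partners of Vps39 outside the stretch had a median ratio of 0.692 and Vps39 itself 0.975, while under GANC the partners had 1.05 and Vps39 0.669. Vps41, for one, stood at 117 and 114 CPM in HSVTK DMSO, against 173 and 168 CPM in Control DMSO, a change of -0.57 ± 0.07 (adjusted p = 6.91e-08). Vps16 did not share this, with ratios of 1.17 under GANC and 1.01 under DMSO, and its difference of drug responses was not called (0.20 ± 0.11, adjusted p = 0.172). Vps18, a HOPS subunit encoded inside the stretch but no member, had ratios of 0.698 under GANC and 0.7 under DMSO. Among partners called higher under GANC, the largest changes were those of Med20, of the Mediator with Med19, at 0.70 ± 0.10 (adjusted p = 6.17e-06), Itgb3, a beta subunit that pairs with Itgav, at 0.67 ± 0.22 (adjusted p = 0.0256), and H2-D1, a class I heavy chain that pairs with B2m, at 0.46 ± 0.12 (adjusted p = 0.00375). Without HSVTK GANC replicate 1 the calls of Itgb3 (0.372) and H2-D1 (0.0645) were lost, and without Control GANC replicate 2 that of Itgb3 (0.154). Under DMSO the peptide transporter subunit Tap2 was called from very few counts, at 1.12 and 0.35 CPM in HSVTK DMSO, against 0.0616 and 0.0684 CPM in Control DMSO (adjusted p = 0.00236, and 0.144 without HSVTK DMSO replicate 1). H2-D1 followed at 1.21 ± 0.12 (adjusted p = 4.63e-09) and H2-K1 at 1.08 ± 0.10 (adjusted p = 1.21e-09). B2m itself stood at 14 and 13.5 CPM in HSVTK GANC, against 19.2 and 18.5 CPM in Control GANC, and at 10.1 and 11.3 CPM in HSVTK DMSO, against 21.1 and 20.2 CPM in Control DMSO, lower in HSVTK cells under both treatments.

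How firmly single members can be read differs. In the GENCODE annotation 25 members share exon bases with another gene, 21 of them with one on the opposite strand, among them Med19 with Tmx2 and Zdhhc5, Ano3 with Muc15, Ubr1 with AV039307 and Pdia3 with Catsper2. The sources used here do not state whether the deposited counts used strand, and without it reads of such pairs cannot be told apart.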

How the data were processed

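RNA was sequenced from 8 libraries of mouse embryonic stem cells, and samples were grouped by their titles. The authors deposited raw counts per gene and, in a second table, FPKM, which equal the count divided by gene length and by the library's total of assigned counts within 4.9e-06. Per the submitters' processing notes, the tools were featureCounts 2.0.1, HISAT2 2.1.0, fastp 0.23.2 and DESeq2 1.40.2 with build GRCm39, their roles not stated. The sources used here give neither strand nor the handling of reads with several matches.

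The counts were fitted with edgeR 4.0.16 in R 4.3.3 (TMM scaling, filterByExpr, quasi-likelihood F test, a mean per group over all 8 libraries, 4 residual degrees of freedom), and a gene was called at an adjusted p below 0.05 over all 17976 tested genes. The biological coefficient of variation was 6.31%. Ratios are means of TMM-scaled CPM. Alternatives were DESeq2 1.42.0, limma 3.58.1 on log2(FPKM + 1) and log2(FPKM + 0.1), other scalings, no filter, fits of the compared libraries alone, a replicate block and each library left out. Gene order and overlaps come from GENCODE vM21 on GRCm38, so no coordinates of the files' build are printed.

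The 58 members, their role groups, the partner list, the markers and the rule for named genes (extremes and centre of the ratio, range edges, and the 6 largest called changes each way per drug comparison, plus the partners with the 3 largest called changes each way) were chosen with earlier results of these data known. Further members are named by role or as calls that complete a count.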

Additional observations from a re-analysis of the deposited data

Results flagged for a closer look

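For 19 of the 30 members named by rule, the drug response of HSVTK cells differed from that of Control cells in the edgeR interaction test, adjusted over all tested genes. The rule took up the largest called differences and drug responses, so this count follows in part from the naming. The difference also rests on the ratios by which members were chosen. It was called in 46.6% of the 58 members and 25.6% of all tested genes. Values are the log2 response in HSVTK cells minus that in Control cells. Below 0 were Phf21a at -0.97 (adjusted p = 1.26e-07), Ext2 at -0.67 (7.97e-05), Chac1 at -0.63 (1.09e-05), Hipk3 at -0.61 (0.0123), Vps39 at -0.54 (0.00199), Eif2ak4 at -0.52 (0.0027), Itgav at -0.51 (0.0174), Nusap1 at -0.47 (0.000603), Ambra1 at -0.33 (0.0174) and Ino80 at -0.28 (0.0363). Above 0 were Cstf3 at 0.25 (0.0478), Zc3h15 at 0.27 (0.0168), Caprin1 at 0.33 (0.000784), B2m at 0.50 (0.0197), Ivd at 0.51 (0.00887), Ubr1 at 0.55 (0.00163), Selenoh at 0.63 (9.75e-07), Sord at 0.66 (0.000765) and Ano3 at 2.30 (0.00065). Hipk3, Itgav, Ambra1, Ino80, Cstf3, Zc3h15, B2m and Ivd lost the call without at least 1 library, with adjusted p-values of 0.05 to 0.233 in those fits.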

How the results depend on the processing

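No direction of a called value was reversed under any setting run. The median ratio under GANC was 0.692 with RLE size factors and 0.715 with library size scaling or FPKM. At a mean CPM of at least 5, the neighbours' medians were 0.69 inside the stretch under GANC, 0.981 before Dnajc10 under GANC, and 1.02 under GANC and 0.972 under DMSO after Sord. The limma fits on FPKM made fewer calls, and the cause was not tested. With log2(FPKM + 1) and log2(FPKM + 0.1), the drug in HSVTK cells gave 2615 and 2678 genes and 12 and 13 members, 7 and 7 higher, 5 and 6 lower. In Control cells they gave 29 and 47 genes and 0 members (0 higher, 0 lower) in each. For the difference of responses they gave 1981 and 2127 genes and 11 and 10 members, 5 and 5 higher, 6 and 5 lower. HSVTK against Control cells gave 3652 and 3692 genes under DMSO and 2288 and 2381 under GANC. Fitting only the Control libraries gave 942 genes. With each library left out in turn, the drug in HSVTK cells called 3313 to 5627 genes and 14 to 28 members (6 to 14 higher, 8 to 14 lower), the drug in Control cells 433 to 2010 genes and 3 to 13 members (1 to 4 higher, 2 to 10 lower), and the difference 3415 to 4638 genes and 14 to 24 members (7 to 13 higher, 7 to 12 lower). HSVTK against Control cells gave 4399 to 6560 genes and 25 to 43 partners under DMSO, and 2999 to 4497 genes and 14 to 30 partners under GANC. The median ratio stayed within 0.687 to 0.703 under GANC and 0.655 to 0.675 under DMSO, with 37 to 39 and 28 to 31 members near 0.667. The lowest counts came without HSVTK DMSO replicate 2 for the drug in HSVTK cells (14 members), without Control DMSO replicate 2 in Control cells (3) and without HSVTK DMSO replicate 1 for the difference (14).

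Deviations of same-numbered libraries correlated at -0.0636 to 0.0243 between groups over 13463 genes, so no effect shared by replicate number was seen. This cannot tell whether same-numbered libraries were cultured or prepared together. A replicate block gave 23 members called for the drug in HSVTK cells and 9 in Control cells, with 24 for the interaction, against 24, 9 and 27 without the block. Members with few counts, Ano3 above all, have the widest errors.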
